A study of Mus musculus with 48 samples.

Results

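Genes of the autophagy and lysosome machinery were followed in mouse liver over a day, with and without the clock gene Bmal1. The genes were taken by symbol, with earlier results of these data known, and each had a mean of at least 10 counts per library. The symbols were those of subunits of the vacuolar proton pump (Atp6v), lettered cathepsins (Cts), Lamp1 and Lamp2, numbered Atg genes and Ulk1 to Ulk4. Also included were the Map1lc3 and Gabarap families, Wipi1 and Wipi2, and Becn1, Sqstm1, Bnip3 and Tfeb. Of the 23732 genes in the table, 70 matched by symbol and 62 had the required mean. All 62 were among the 14836 genes that passed the filter on low counts. The other 8 had means between 0.0625 counts (Atp6v1e2) and 8.29 counts (Atp6v0a4), and Tfeb, Atg101 and Map1lc3c were not analysed here.

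Autophagy encloses cytoplasm in a double membrane and delivers it to the lysosome. The ULK1 kinase complex and the Beclin 1 lipid kinase complex start the process, ATG9 vesicles, ATG2 lipid transfer proteins and WIPI proteins build the membrane, and conjugation enzymes attach the ATG8 proteins (LC3 and GABARAP) to it. Cargo receptors such as SQSTM1 and BNIP3 bind ATG8 proteins, and the lysosome, acidified by the vacuolar ATPase (V-ATPase), breaks the cargo down with cathepsins and other hydrolases. In liver, autophagy is known to follow feeding and fasting and to vary with the time of day.

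The KO mice were Bmal1 f/f with EsrCre, a ubiquitous Cre recombinase that tamoxifen activates, and the WT mice were littermates with Bmal1 f/f and no Cre. All were male C57BL/6 mice of 4 to 6 months that received 5 mg of tamoxifen a day for 5 days by gavage, so the floxed alleles and the drug were common to both groups while Cre was not, and an effect of Cre cannot be told apart from the loss of Bmal1. After 7 more days they were kept for 36 h in constant darkness and killed at 4 h intervals spanning 20 h (6 times, each with 4 WT and 4 KO mice), given as ZT0 to ZT20 (zeitgeber hours) as in the labels. Whole liver was used, so more cells of a type and more RNA per cell cannot be told apart.

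The 48 libraries held between 33562272 and 34035644 counts. Arntl, the gene of BMAL1, lay between 0.979 and 47.8 CPM (counts scaled to a common library total) in the WT mice and between 4.60 and 25.6 in the KO mice; its row counts the whole transcript, including exons outside the deleted part, so its level does not check the deletion. Its 24 h rhythm had a fitted amplitude (mean to peak, log2) of 2.03 in WT (adjusted p = 3.62e-07) and 0.18 in KO (adjusted p = 0.833). Nr1d1 and Dbp, clock output genes, had amplitudes of 3.05 and 3.47 in WT and of 0.51 and 0.75 in KO. The 7 hepatocyte markers measured summed to a median of 24786 CPM in WT and 24753 CPM in KO, none of the 7 at zero. The 4 KO libraries farthest from their groups (mice 20 and 21 of ZT12 and 43 and 44 of ZT0) stay in all values unless stated.

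Transcripts of the pathway differed in abundance by orders of magnitude. Scaled by exon length (CPM per kb, mean ± SD of the 24 WT mice), the lysosomal membrane protein gene Lamp1 was at 303 ± 19.2 and Lamp2, which also serves chaperone-mediated autophagy, at 105 ± 8.39. Among the cathepsins, the lysosomal proteases, Ctsd was highest at 196 ± 15.3 and Ctse lowest at 0.176 ± 0.0612. In the ATG8 family Gabarapl1 was highest at 152 ± 53.9 and Map1lc3b lowest at 14.9 ± 2.42. The receptors Sqstm1 and Bnip3 were at 110 ± 16.3 and 83.1 ± 23.9. Ulk2 was highest among the initiation genes at 16.6 ± 2.26 and Ulk3 lowest at 2.26 ± 0.342, Atg9a highest among the membrane supply genes at 14.6 ± 1.5 and Atg9b lowest at 0.457 ± 0.803, and Atg5 highest among the conjugation genes at 28.9 ± 2.54 and Atg16l2 lowest at 0.691 ± 0.164. Of the pump, Atp6v0d1 led the membrane sector V0 at 43.8 ± 4.73 with Atp6v0e2 lowest at 0.309 ± 0.0460, and Atp6v1g1 led the catalytic sector V1 at 54.8 ± 6.61 with Atp6v1g2 lowest at 0.421 ± 0.0685.

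Averaged over the 6 times, 11 of the 62 genes differed between KO and WT, against 8.86% of all genes tested. Calls are edgeR quasi-likelihood tests with an adjusted p under 0.05 over all genes. The 5 genes higher in KO (background 4.94%) were Atp6v0d2, Ctss, Ctsz, Ctsh and Atg4a, and the 6 lower in KO (background 3.92%) were Ctse, Atg2a, Atp6v0a2, Atg2b, Atg9a and Wipi2. The median difference over the 62 genes was 0.02 on the log2 scale, beside 0.001 over all genes. The widest differences were those of 2 genes, Atp6v0d2 upwards and Ctse downwards; the other 9 called genes differed by at most 0.33. With body weight in the model, or in the 38 group-housed mice alone, 3 genes were called in each direction, and within the 22 mice of cages that held both genotypes 1 gene, Atp6v0d2, was. Over all genes the calls fell too, from 1314 of 14836 to 711 of 14836, 926 of 14889 and 191 of 15272 in these settings. The calls of Ctsh, Ctsz, Wipi2 and Atp6v0a2 were lost in both of the first 2 settings, that of Atg9a with body weight and that of Atg2b in the group-housed mice. Body weight ran from 27 to 34 g in WT and from 23 to 31 g in KO. It thus goes partly with genotype, and a call lost with it in the model cannot be assigned to either.

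**Figure D1:**
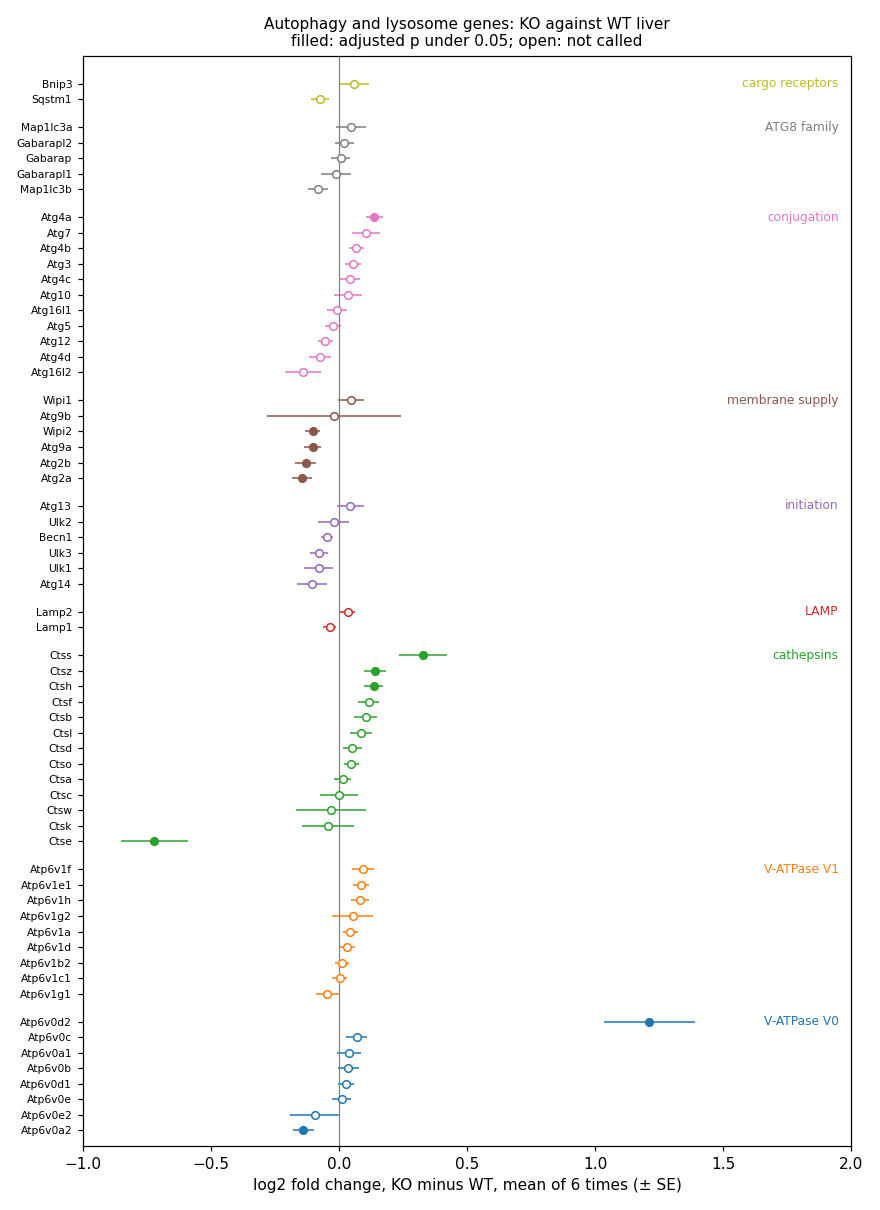
Difference between KO and WT liver for the 62 genes, grouped by role (horizontal axis: log2 fold change, mean of the 6 times; bars: SE; filled points: adjusted p under 0.05). Atp6v0d2 lies at 1.21 and Ctse at -0.72, Ctss at 0.33 and the other 59 genes within 0.2 of zero, and 4 of the 6 membrane supply genes are filled on the lower side.

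Atp6v0d2 encodes the d2 form of the pump's V0 subunit d, known from osteoclasts and macrophages, while Atp6v0d1 encodes the widely expressed form (ENSMUSG00000028238, mm9 chr4:19803988-19849752). Its level ran from 0.730 to 10.3 CPM with a median of 3.05 in the WT mice and from 2.62 to 16.5 with a median of 7.96 in the KO mice. At ZT8 the WT mice had 4.54, 2.29, 3.66 and 2.70 CPM and the KO mice 9.57, 7.20, 9.14 and 8.94. At ZT20 the WT mice had 1.31, 0.730, 1.19 and 3.26 CPM and the KO mice 4.79, 9.14, 9.0 and 8.17. At those 2 times every KO mouse was above every WT mouse, and at ZT0, where WT had 6.09 ± 3.22 and KO 7.13 ± 3.37 (mean ± SD of 4 mice), the groups overlapped widely.

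The averaged difference of Atp6v0d2 was 1.21 ± 0.18 (log2 fold change ± SE, adjusted p = 8.50e-06), in the same direction at all 6 times. It was called in each of the 12 other settings and 48 fits without 1 mouse. At single times it was called at ZT8 (1.40), ZT12 (1.35) and ZT20 (2.25), the last losing its call without WT mouse 35 (adjusted p = 0.0534) and in the group-housed mice (0.148). The isoform Atp6v0d1, at 78.5 ± 8.49 CPM in WT and 79.8 ± 7.79 in KO, had a difference of 0.03 ± 0.03 (adjusted p = 0.664). None of the 9 V1 genes was called on the average by edgeR (3 at an unadjusted p under 0.05, none by DESeq2), and of the 8 V0 genes Atp6v0a2 was the only other one called, at -0.14 ± 0.04 (adjusted p = 0.0232).

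Liver holds macrophages, in which Atp6v0d2 and several cathepsins are known to be expressed. Of 12 macrophage markers none was called by edgeR (10 at an unadjusted p under 0.05, 1 called by DESeq2), their median difference was 0.20, and their sum ran from 1138 to 2232 CPM (median 1566) in WT and from 952 to 2941 (median 1810) in KO, with none at zero. Of 5 genes that mark osteoclast-like macrophages, Mmp9, a matrix metalloproteinase, was higher in KO (2.08 ± 0.697 against 5.57 ± 2.35 CPM, log2 difference 1.42 ± 0.16, adjusted p = 3.41e-08), whereas Acp5, Ctsk, Trem2 and Gpnmb had values between -0.20 and 0.06 and were not called (Ctsk is also one of the 62 genes). Of the markers of other cells, 1 of 7 endothelial genes (Kdr, -0.18) and 1 of 11 lymphoid and neutrophil genes (Ncr1, -0.70) were lower in KO, 1 of 7 hepatocyte genes (Apoa1, 0.33) was higher, and none of 7 stellate or 5 cholangiocyte genes was called by edgeR (1 of each at an unadjusted p under 0.05, and 1 cholangiocyte gene by DESeq2). Across the 24 mice of a genotype, after removing group means, Atp6v0d2 and the mean of the 12 macrophage markers had r = 0.28 in WT (rho = 0.20, permutation p = 0.19 and 0.36, r = 0.16 without 2 mice) and r = -0.097 in KO (rho = -0.038, permutation p = 0.66 and 0.86, r = -0.083 without 2 mice); all adjusted p over the 8 relations computed were at least 0.30 for this gene. The part of other cell types in the difference was not tested further.

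Of the 13 cathepsins, 3 were higher in KO (background 4.94%), 1 was lower (background 3.92%) and 9 did not pass. Ctss, a cysteine protease of antigen-presenting cells, ran from 71.9 to 153 CPM (median 113) in WT and from 78.9 to 259 (median 146) in KO, a difference of 0.33 ± 0.09 (adjusted p = 0.0224). The KO mice lay above the WT mice without overlap at ZT4 and ZT16 and overlapped them at the other 4 times. Ctss moved with the macrophage markers across mice: r was 0.956 in WT (rho = 0.940, r = 0.944 without 2 mice) and 0.958 in KO (rho = 0.903, r = 0.907 without 2 mice), each with a permutation p of 1e-05, the smallest that 100000 permutations give, and an adjusted p of 4e-05.

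The other cathepsins higher in KO differed less. Ctsh, an aminopeptidase, was at 290 ± 28.4 CPM in WT and 318 ± 36.1 in KO (0.14 ± 0.04, adjusted p = 0.0169), and Ctsz, a carboxypeptidase, at 231 ± 20.7 and 254 ± 33.3 (0.14 ± 0.04, adjusted p = 0.0384). The call of Ctsh was lost in 7 of the 12 other settings, among them body weight in the model (adjusted p = 0.0883), the group-housed mice alone (0.0794) and the fit without the 4 libraries named above (0.0527), and that of Ctsz in 8 of the 12 (0.328, 0.145 and 0.177 in the same 3). The call of Ctsz held in 29 of the 48 fits without 1 mouse and was lost, for example, without KO mouse 44 of ZT0 (adjusted p = 0.0685). Ctsz had r = 0.648 with the macrophage markers in WT (rho = 0.700, permutation p = 0.00074 and 0.00024, adjusted p = 0.0020 and 0.00064, r = 0.614 without 2 mice) and r = -0.052 in KO (rho = -0.142, permutation p = 0.81 and 0.51, r = -0.236 without 2 mice). For Ctsh, r was -0.071 in WT (rho = 0.046, permutation p = 0.74 and 0.83, r = 0.115 without 2 mice) and 0.464 in KO (rho = 0.219, permutation p = 0.025 and 0.30, r = 0.172 without 2 mice), so the relation in KO rests on those 2 mice.

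Ctse, an aspartic protease of the endosome known mainly from stomach and immune cells, was the member that fell furthest (ENSMUSG00000004552, mm9 chr1:133534883-133572080). It was near the detection limit, with a mean of 15.1 counts per library: 0.230 to 0.944 CPM (median 0.527) in WT and 0.144 to 0.548 (median 0.319) in KO, a difference of -0.72 ± 0.13 (adjusted p = 0.000254). At ZT12 the WT mice had 0.867, 0.685, 0.798 and 0.602 CPM and the KO mice 0.242, 0.197, 0.322 and 0.205. That is the time of its widest gap, -1.60 ± 0.33 (adjusted p = 0.00112), and the only one at which the groups did not overlap. The 2 cathepsins most abundant per kb of exon in WT, Ctsd and Ctsb, were not called. Ctsb, at 973 ± 73.2 CPM in WT and 1047 ± 134 in KO, had a difference of 0.10 ± 0.04 (adjusted p = 0.150). Ctsd, at 461 ± 35.9 and 478 ± 42.9, had one of 0.05 ± 0.04 (adjusted p = 0.394).

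Genes that supply membrane to the forming autophagosome were the role with the largest share lower in KO, 4 of 6 (background 3.92%). The roles are small, and this ranking was made after the calls were seen. Atg2a and Atg2b encode lipid transfer proteins, Atg9a the scramblase of the seed vesicles and Wipi2 a reader of the lipid PI3P. Atg2a was at 61.4 ± 14.4 CPM in WT and 54.4 ± 6.28 in KO (-0.15 ± 0.04, adjusted p = 0.0149), Atg2b at 43.9 ± 4.45 and 40.02 ± 3.92 (-0.13 ± 0.04, adjusted p = 0.0323), Atg9a at 83.9 ± 8.64 and 78.0 ± 5.85 (-0.10 ± 0.03, adjusted p = 0.0395), and Wipi2 at 89.5 ± 9.87 and 83.0 ± 5.88 (-0.10 ± 0.03, adjusted p = 0.0182). Within the mice of ZT4 and ZT8 13 of the 62 genes were called lower in KO, within those of ZT12 and ZT16 3, and within those of ZT0 and ZT20 none by edgeR (4 at an unadjusted p under 0.05). The count over all genes fell in the same order, from 1337 of 14421 to 420 of 14257 and 255 of 14355. Atg2a had a difference of 0.001 in the mice of ZT0 and ZT20 (adjusted p = 0.995), and Wipi2 one of 0.04 in those of ZT12 and ZT16 (adjusted p = 0.755). Atg9a kept its call in 32 of the 48 fits without 1 mouse (adjusted p = 0.0675 without WT mouse 16 of ZT8), and Atg2b in 46 (0.0607 without WT mouse 42 of ZT0).

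Elsewhere the daily average moved little. Atg4a, a protease that trims ATG8 proteins, was higher in KO (15.6 ± 1.41 against 17.1 ± 1.34 CPM, 0.14 ± 0.03, adjusted p = 0.00683); its pseudogene Atg4a-ps had a mean of 3.50 counts beside 552 for Atg4a, and how reads common to both were assigned is not given in the sources used here. No gene of initiation (6 genes, 1 at an unadjusted p under 0.05), the ATG8 family (5, 1), the cargo receptors (2, 1) or the Lamp genes (2, none) was called on the average by edgeR, nor by DESeq2. Becn1, the scaffold of the Beclin 1 complex, was at 62.7 ± 5.48 CPM in WT and 60.6 ± 2.99 in KO (-0.05 ± 0.02, adjusted p = 0.227).

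The WT mice showed a 24 h rhythm in 41 of the 62 genes (66.1%), against 48.1% of all genes tested. Every ATG8 gene (5 of 5) and both receptors were rhythmic, as were 7 of 9 V1 genes, 4 of 8 V0 genes and 7 of 13 cathepsins. So were 7 of 11 conjugation genes, 4 of 6 genes each of initiation and membrane supply, and Lamp2 but not Lamp1. DESeq2 called both Lamp genes rhythmic in WT. An edgeR test for any difference among the WT time means also called 37 of the 41, but not Gabarap (adjusted p = 0.0816). The swings were small. The median amplitude of the 41 was 0.18 on the log2 scale, beside 0.25 for the 7141 genes rhythmic in WT, and the highest were those of Atg9b (1.78), Gabarapl1 (0.66) and Bnip3 (0.48).

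Peaks gathered in the subjective day. Of the 41, 7 peaked between ZT0 and ZT4, 10 between ZT4 and ZT8, 17 between ZT8 and ZT12 and 6 between ZT12 and ZT16. None peaked between ZT16 and ZT20, and Atg4c alone peaked between ZT20 and ZT24, at 20.97 h. The window from ZT8 to ZT12 thus held 41.5% of these genes and 16.5% of all rhythmic genes, whose shares lay between 15.5% and 17.6% in every window.

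**Figure D2:**
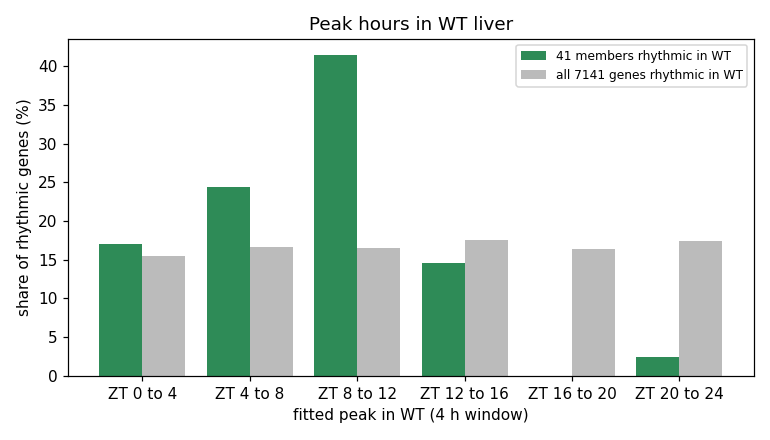
Share of WT-rhythmic genes (vertical axis, %) by fitted peak in 4 h windows (horizontal axis, ZT) for the 41 autophagy and lysosome genes (green) and for all 7141 rhythmic genes (grey). Grey bars stay between 15.5% and 17.6%, while the green bars reach 41.5% at ZT8 to ZT12 and 0 at ZT16 to ZT20.

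The order of the peaks followed the roles only in part. Sqstm1 and Atg7 came first, at 0.477 ± 0.610 and 0.919 ± 1.23 h (fitted peak ± approximate SE), followed by Atp6v1b2, Atg5, Atg16l2 and Lamp2 between 1.20 and 1.52 h. The initiation kinases Ulk1 and Ulk3 (3.74 ± 1.02 and 4.35 ± 0.657 h), the ATG8 gene Gabarapl1 (4.52 ± 0.404 h) and the membrane supply genes Wipi2, Wipi1 and Atg2a (4.90 ± 0.725, 5.43 ± 0.574 and 5.97 ± 0.687 h) came next, each neighbour in this order within its SE of the one before. Bnip3 (10.5 ± 0.450 h), Becn1 (10.6 ± 0.581 h) and most of the rhythmic V-ATPase genes followed, and Atg9b was late, at 15.99 ± 0.511 h.

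**Figure D3:**
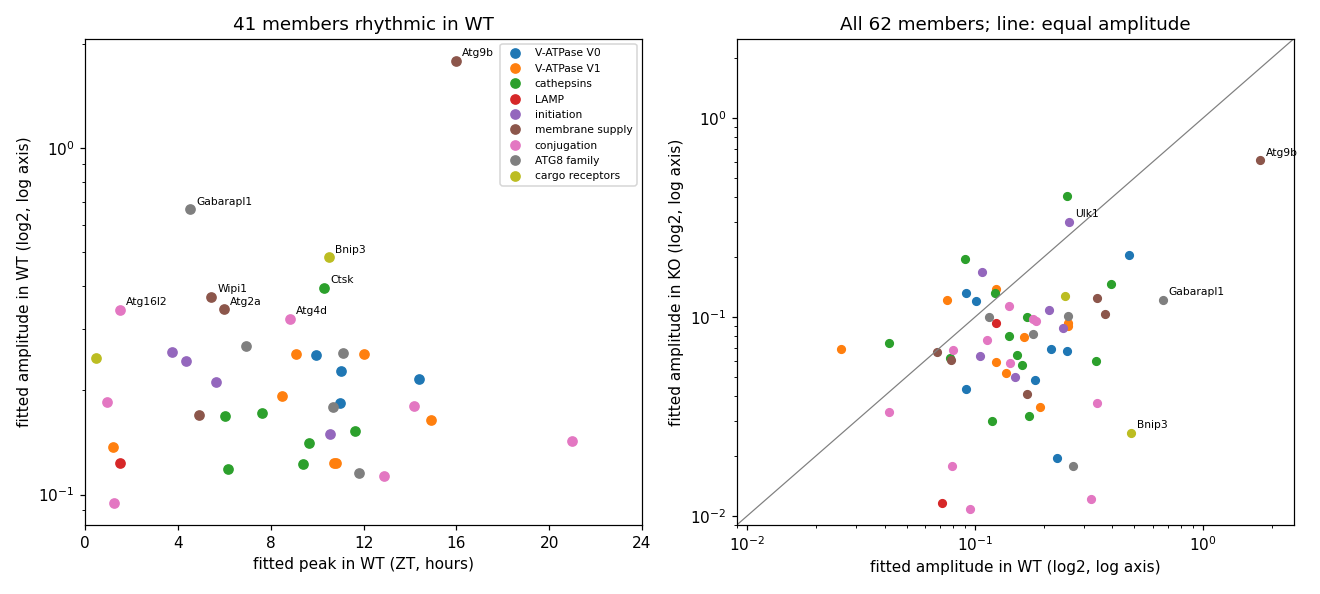
Left, fitted peak (ZT, hours) against amplitude (log2, log axis) of the 41 genes rhythmic in WT, coloured by role. Right, amplitude in WT against amplitude in KO for all 62 genes on log axes with the line of equal amplitude. Most points lie under the line, Ulk1 slightly above it at 0.26 in WT and 0.30 in KO.

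Gabarapl1 had the clearest rhythm (ENSMUSG00000030161, mm9 chr6:129483218-129492349). It encodes a GABARAP-type ATG8 protein and was the most abundant ATG8 transcript. At ZT8, near its peak, the WT mice had 393, 483, 412 and 487 CPM and the KO mice 255, 262, 265 and 321. At ZT16, near its trough, the WT mice had 169, 160, 111 and 185 CPM and the KO mice 306, 263, 268 and 297. The genotypes did not overlap at either time nor at ZT4, and the order reversed from WT higher at ZT4 and ZT8 to KO higher at ZT16.

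The fitted WT rhythm of Gabarapl1 had an amplitude of 0.66 ± 0.07 (adjusted p = 2.84e-09), a peak-to-trough ratio of 2.51. In KO it was 0.12 ± 0.07 (adjusted p = 0.444), with means between 260 ± 29.2 and 335 ± 32.2 CPM over the 6 times, and the difference between the 2 rhythms had an adjusted p of 5.88e-07. KO minus WT was -0.67 ± 0.14 at ZT4 (adjusted p = 0.00452), -0.69 ± 0.14 at ZT8 (0.00147) and 0.86 ± 0.14 at ZT16 (0.000239). The average over times was -0.01 ± 0.06 (adjusted p = 0.928).

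The other ATG8 genes had smaller WT rhythms at later hours. Map1lc3b, the LC3B gene used as the standard marker of autophagosomes, peaked at 6.91 h with an amplitude of 0.27 ± 0.04 (adjusted p = 6.38e-06). At ZT8 its WT mice had 141, 145, 126 and 149 CPM and its KO mice 102, 96.0, 109 and 111, without overlap, a difference of -0.42 ± 0.09 (adjusted p = 0.00346); its rhythm in KO was 0.02 ± 0.04, and the rhythms differed (adjusted p = 0.00125). Gabarapl2, Map1lc3a and Gabarap peaked in WT at 10.7, 11.1 and 11.8 h with amplitudes of 0.18, 0.26 and 0.12 (adjusted p = 0.00120, 0.000835 and 0.0495). Their KO amplitudes of 0.08, 0.10 and 0.10 were not called, and neither was the difference (adjusted p = 0.399, 0.283 and 0.957). Map1lc3a shares 1777 bases, its whole deposited interval, with Pigu, and the libraries do not record strand. Pigu had a mean of 606 counts beside 1171 for Map1lc3a, and a WT amplitude of 0.03 (adjusted p = 0.754).

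**Figure D4:**
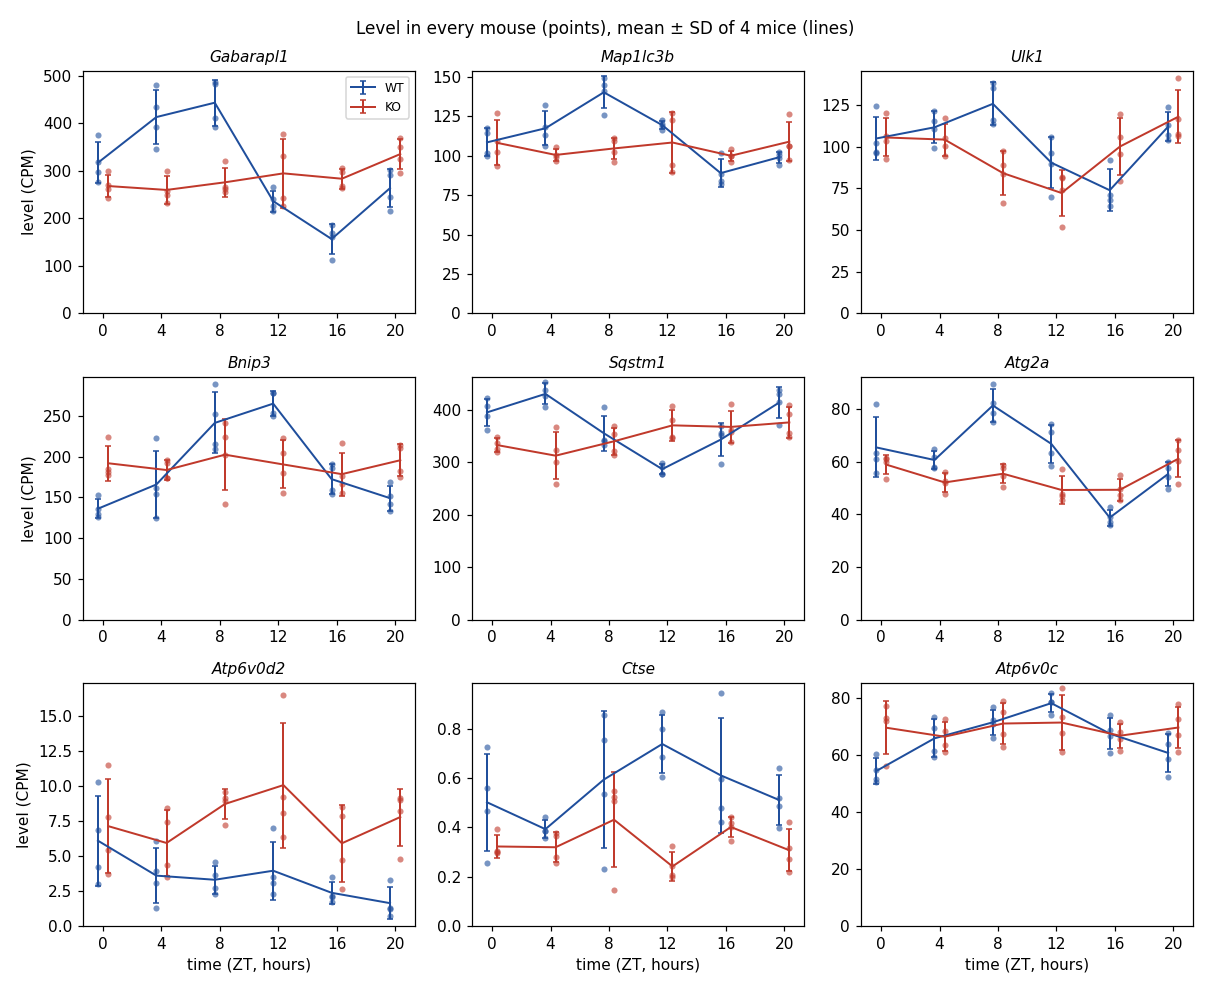
Level of 9 genes (vertical axes, CPM from zero) by time (horizontal axes, ZT in hours) in every mouse (points; WT blue, KO red) with the mean ± SD of 4 mice (lines). The WT lines of Gabarapl1, Bnip3 and Sqstm1 swing while the KO lines are flatter, and the KO line of Atp6v0d2 lies above the WT line at each time.

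Bnip3, a receptor that links mitochondria to ATG8 proteins and is induced by low oxygen, rose through the day in WT (ENSMUSG00000078566, mm9 chr7:146082519-146101202). The WT mice had 130, 136, 126 and 153 CPM at ZT0 and 254, 278, 249 and 279 at ZT12. The KO mice had 178, 224, 182 and 184 CPM at ZT0 and 180, 205, 223 and 155 at ZT12. KO lay wholly above WT at ZT0 and ZT20 and wholly below it at ZT12.

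The WT amplitude of Bnip3 was 0.48 ± 0.06 (adjusted p = 2.89e-08), peak at 10.5 h, and the KO amplitude 0.03 ± 0.06 (adjusted p = 0.946); the rhythms differed (adjusted p = 8.91e-05). At ZT12 the difference was -0.48 ± 0.14 (adjusted p = 0.0213), which became 0.0631 without KO mouse 24 and 0.0509 in the group-housed mice. The averaged level was 188 ± 54.1 CPM in WT and 190 ± 25.4 in KO (0.06 ± 0.06, adjusted p = 0.580).

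Sqstm1, the p62 receptor for ubiquitinated cargo, ran opposite to Bnip3 in WT, with its low where Bnip3 was high (ENSMUSG00000015837, mm9 chr11:50012868-50024329). At ZT4 the WT mice had 453, 437, 426 and 406 CPM and the KO mice 367, 324, 301 and 258. At ZT12 the WT mice had 292, 278, 278 and 299 CPM and the KO mice 380, 407, 348 and 346. WT was thus wholly above KO at ZT4 and wholly below it at ZT12. The differences were -0.46 ± 0.09 (adjusted p = 0.00184) and 0.37 ± 0.09 (adjusted p = 0.00399; 0.0521 without the 4 libraries named above). The rhythm was 0.25 ± 0.04 in WT (adjusted p = 1.02e-05) and 0.13 ± 0.04 in KO (adjusted p = 0.116, fitted peak at 15.9 h), and the 2 differed (adjusted p = 4.30e-05).

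In KO, 1 of the 62 genes was called rhythmic (1.61%, background 0.984%). That gene was Ulk1, the kinase that starts autophagy (ENSMUSG00000029512, mm9 chr5:111213507-111239116). At ZT8 the WT mice had 138, 135, 114 and 116 CPM and the KO mice 83.8, 97.5, 89.1 and 66.0. At ZT16 the WT mice had 64.3, 70.9, 67.9 and 92.2 CPM and the KO mice 106, 119, 79.2 and 95.8. The groups did not overlap at ZT8 and overlapped at each other time; the WT mean was lowest at ZT16, 73.8 ± 12.6, and the KO mean at ZT12, 72.2 ± 13.9.

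Ulk1 had an amplitude of 0.26 ± 0.07 with a peak at 3.74 ± 1.02 h in WT (adjusted p = 0.00696) and of 0.30 ± 0.07 with a peak at 22.4 ± 0.864 h in KO (adjusted p = 0.0431). The rhythms differed (adjusted p = 0.00976); that test takes amplitude and peak hour together. The difference at ZT8 was -0.58 ± 0.14 (adjusted p = 0.00640), and the average over times -0.08 ± 0.06 (adjusted p = 0.413). The KO rhythm kept its call in 29 of the 48 fits without 1 mouse (adjusted p = 0.0807 without KO mouse 21 of ZT12) and lost it without the 4 libraries named above (0.109), in the group-housed mice (0.155), with no filter on low counts and with cage set as a term (0.135).

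The rhythm itself differed between genotypes in 23 of the 62 genes (37.1%, background 22.8%), and the difference between genotypes depended on time in 19 (30.6%, background 20.7%). Of the 41 genes rhythmic in WT, 38 had a smaller fitted amplitude in KO, as did 96.3% of all genes rhythmic in WT. The 3 that did not were Ulk1, Ctsh and Atp6v1f. The median amplitude of the 41 was 0.08 in KO. Choosing genes for a called WT rhythm favours larger fitted amplitudes in WT. The count, the share and the median therefore do not test a loss of rhythm in KO. By smallest p the rhythm differences were led by Gabarapl1, Atg9b, Sqstm1, Bnip3, Wipi1 and Atg4d.

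Atg9b, a second ATG9 gene expressed at low level, had the highest amplitude, 1.78 ± 0.24 in WT (adjusted p = 4.01e-07) against 0.61 ± 0.25 in KO (adjusted p = 0.245). At ZT16 the WT mice had 1.74, 3.87, 16.001 and 2.78 CPM and the KO mice 0.706, 1.70, 1.42 and 0.401. WT lay wholly above KO there, by a narrow margin (1.74 against 1.70 CPM), and WT mouse 29 alone held the value of 16.001. The difference at ZT16 was -2.53 ± 0.56 (adjusted p = 0.00600), and without that mouse -1.40 (adjusted p = 0.136); the WT rhythm without it had an amplitude of 1.28 (adjusted p = 2.78e-05). Atg9b overlaps Nos3 by 294 bases in the deposited mm9 intervals, and the libraries do not record strand. Nos3, at a mean of 153 counts beside 50.3 for Atg9b, had a difference of -0.25 at ZT16 (adjusted p = 0.391) and a WT amplitude of 0.17 (adjusted p = 0.0754). Its fitted WT peak, at 15.95 h, was close to that of Atg9b at 15.99 h. Whether reads of one gene entered the count of the other was not tested.

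Atg2a (ENSMUSG00000024773, mm9 chr19:6241668-6262335) reversed its order within the day. At ZT8 the WT mice had 78.5, 75.3, 89.5 and 82.4 CPM and the KO mice 50.6, 58.9, 54.7 and 57.7. At ZT16 the WT mice had 39.001, 37.2, 36.0 and 42.9 CPM and the KO mice 55.0, 45.5, 49.6 and 47.3. The genotypes did not overlap at ZT4, ZT8, ZT12 or ZT16, with WT above KO at the first 3 and below at ZT16. The differences were -0.55 ± 0.10 at ZT8 (adjusted p = 0.000235), -0.44 ± 0.10 at ZT12 (0.00214) and 0.35 ± 0.10 at ZT16 (0.0264; 0.123 without KO mouse 25).

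At ZT8 Wipi2 and Atg4d were lower in KO, while the difference of Wipi1 was not called. Wipi1 was at 30.3 ± 1.19 CPM in WT and 23.5 ± 2.28 in KO at ZT8 (-0.37 ± 0.12, adjusted p = 0.0593) and at 15.8 ± 1.12 and 23.0 ± 2.07 at ZT16 (0.54 ± 0.13 at ZT16, adjusted p = 0.00824; 0.0513 without KO mouse 25). Wipi2 was at 101.2 ± 6.28 CPM in WT and 78.6 ± 3.54 in KO at ZT8 (-0.37 ± 0.07, adjusted p = 0.000675). Atg4d, another ATG8 protease, was at 37.6 ± 4.16 and 26.4 ± 2.96 CPM at ZT8 (-0.51 ± 0.10, adjusted p = 0.00133), with a WT amplitude of 0.32 ± 0.05 and a KO amplitude of 0.01 ± 0.05. Atg4d overlaps Kri1 by 911 bases, and Kri1 had a difference of 0.14 at ZT8 (adjusted p = 0.470).

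The number of genes that differed varied over the day, as it did for all genes. ZT0 had 1 (background 1.68%) and ZT4 had 2 (background 3.79%). ZT8 had 10 (background 7.87%) and ZT12 had 9 (background 11.7%). ZT16 had 5 (background 5.37%) and ZT20 had 2 (background 1.05%). At ZT8, 8 of the 10 were lower in KO: Gabarapl1, Map1lc3b, Ulk1, Ulk3, Atg2a, Atg9a, Wipi2 and Atg4d, all of them autophagosome genes, while Atp6v0d2 and Atg9b were higher. At ZT16 Gabarapl1, Wipi1, Atg2a and Ulk3 were higher in KO and Atg9b was lower. Of the genes called at ZT8, Gabarapl1, Atg2a, Ulk3 and Atg9b were thus called with the other sign at ZT16. Map1lc3b, Ulk1, Atg9a, Wipi2, Atg4d and Atp6v0d2 were not called there. At ZT12 the 9 were mixed: Atg7, the E1-like enzyme that activates ATG8 proteins, was higher in KO (47.2 ± 6.38 against 71.9 ± 6.32 CPM, 0.61 ± 0.13, adjusted p = 0.00214), as were Sqstm1, Lamp2 and Atp6v0d2, and Ctse, Atg2a, Atp6v0a2, Bnip3 and Atg4d were lower. Without the 4 libraries named above Atp6v0a2 lost its call at ZT12 (adjusted p = 0.0760), and Ulk3 lost that at ZT16 in the group-housed mice (0.116), with no filter (0.0864) and with cage as a random block (0.0580).

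Of 17 V-ATPase subunit genes measured, 11 were rhythmic in WT (background 48.1%). Of the 11, 10 peaked between ZT8 and ZT16, from Atp6v1c1 at 8.48 ± 0.563 h to Atp6v1g1 at 14.9 ± 1.01 h, and Atp6v1b2, at 1.20 h, was the exception. Of all rhythmic genes, 16.5% peaked between ZT8 and ZT12 and 17.6% between ZT12 and ZT16. Atp6v1e1 of the pump's stalk had an amplitude of 0.25 ± 0.03 and a peak at 9.08 ± 0.484 h (adjusted p = 1.35e-07), and Atp6v1d of the rotor 0.26 ± 0.03 and 12.0 ± 0.484 h (adjusted p = 1.36e-07). In KO their amplitudes were 0.09 ± 0.03 each, not called, and the rhythms differed (adjusted p = 0.0137 and 0.00372). The rhythm of 5 of the 17 genes differed between genotypes (background 22.8%): Atp6v0a2, Atp6v0c, Atp6v1c1, Atp6v1d and Atp6v1e1.

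The V-ATPase genes called at ZT0 and at ZT20 were higher in KO: Atp6v0c at ZT0, and Atp6v1e1 and Atp6v0d2 (described above) at ZT20. Atp6v0c, the proteolipid of the proton channel, was at 51.4, 54.6, 60.5 and 50.7 CPM in WT at ZT0 and at 56.1, 71.9, 77.1 and 73.0 in KO, overlapping through KO mouse 41 (0.36 ± 0.10, adjusted p = 0.0484). Its call held in 30 of the 48 fits without 1 mouse, and its adjusted p reached 0.182 without WT mouse 48. It held in 2 of the 8 other settings (RLE scaling and DESeq2) and was lost in the other 6, among them total-count scaling (adjusted p = 0.0664), body weight in the model (0.115) and the fit without the 4 libraries named above (0.360). Atp6v1e1 at ZT20 was at 74.9 ± 2.37 CPM in WT and 93.2 ± 5.74 in KO, without overlap (0.32 ± 0.08, adjusted p = 0.0238; 0.124 without KO mouse 39). That call was lost in 3 of the 8 other settings: total-count scaling, no filter on low counts and the group-housed mice.

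In all, 14 of the 62 genes were called in none of these comparisons by edgeR: Ctsb, Ctsc, Ctsd, Ctsw, Atg12, Atg4b, Atg13, Ulk2, Lamp1, Atp6v0a1, Atp6v0e, Atp6v0e2, Atp6v1a and Atp6v1g2. The WT rhythm of Lamp1 was called by DESeq2. The share of all genes called in none was not computed, so whether 14 is few or many cannot be said. The WT rhythm alone was called in 48.1% of all genes tested. The 14 include Lamp1, Ctsd and Ctsb, the 3 genes of the 62 with the highest level per kb of exon in WT. In CPM, Lamp2 was above all 3 in WT, while in KO it was below Ctsb (1022 against 1047 CPM).

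Genes of the same pathway outside the 62 were taken from lists by function. Of 42 rows for other lysosomal hydrolases, 6 were higher in KO and 1 lower on the average (background 4.94% and 3.92%), and 26 were rhythmic in WT (background 48.1%, here and for the lists that follow). The one lower was Arsa, arylsulfatase A (82.1 ± 26.6 against 59.4 ± 11.9 CPM, -0.41 ± 0.07, adjusted p = 4.75e-05). Of 28 rows for lysosomal membrane proteins, 2 were higher and 2 lower, 15 were rhythmic in WT, and 1, Scarb2, was called rhythmic in KO (amplitude 0.18, adjusted p = 0.0427). Among them Npc1, the cholesterol exporter, had a WT amplitude of 0.55 ± 0.08 and Mcoln1, the lysosomal calcium channel, one of 0.32 ± 0.04 and an average 0.11 lower in KO (-0.11 ± 0.03, adjusted p = 0.0266).

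Of 22 other core autophagy genes, 14 were rhythmic in WT, led by the WIPI family member Wdr45 (0.44 ± 0.05, peak at 6.12 h), and 1, Plekhm1, was lower in KO (-0.13 ± 0.04, adjusted p = 0.0142). Of 17 other receptors, 14 were rhythmic, among them Calcoco1 (0.57 ± 0.07, peak at 4.24 h), which was also lower in KO (-0.21 ± 0.06, adjusted p = 0.0167), and Stbd1, the glycogen receptor (0.66 ± 0.10, peak at 9.63 h). Of 34 genes listed for the control of mTORC1 and TFEB, 19 were rhythmic. By smallest p, Zkscan17 (0.50 ± 0.05), Flcn (0.59 ± 0.07, peak at 5.43 h) and Ddit4 (1.15 ± 0.14, peak at 17.4 h) came first. Whether Zkscan17 has a part in that control was not checked. Of 23 genes listed for delivery to the lysosome, 11 were rhythmic, led by Gga2 (0.41 ± 0.05, peak at 17.2 h). In these last 2 lists none was called on the average by edgeR (6 of each at an unadjusted p under 0.05, none by DESeq2).

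Promoter sequences are shown because BMAL1 partners bind the E-box CACGTG and because the lysosomal regulator TFEB binds the extended form TCACGTGA, which contains it. RefSeq promoters (build GRCm38.p6, 250 bases before to 50 after the start) were found for 48 of the 62 genes, not including Atp6v0d2 and Ctse. On either strand CACGTG occurred in 14 of the 48 (29.2%), against 8.09% of 27025 genes: in 10 of 32 genes rhythmic in WT and in 4 of 16 that were not. The 27025 are all genes with a RefSeq promoter, more than the 14836 tested in liver. They were not matched to the 48 for expression or base composition, so the shares here and below do not show an enrichment of the pathway. TCACGTGA occurred in 6 (12.5%, against 1.13% of genes): Atg3, Atp6v0d1, Atp6v0e, Atp6v1a, Ctsa and Ctsd, of which Atg3, Atp6v0d1 and Ctsa were rhythmic. The D-box forms TTATGTAA and TTACGTAA and the RORE form TAGGTCA were in none of the 48 (1.11%, 0.126% and 2.97% of genes), and the form TGGGTCA in 2, Atg4d and Atp6v1d (4.17%, against 4.57%). A match describes letters and not a bound site.

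The following 250 bases end at the base before the gene start, 5′ to 3′ on the gene's strand, with CACGTG in capitals. Bnip3 (chr7:138909507-138909756, minus strand) joins a wide WT rhythm with 1 E-box, 108 bases before the start. Atg3 (chr16:45158579-45158828, plus strand), the E2-like conjugation enzyme with a WT peak at 14.2 h, has 2, at 94 and 71 bases, the second within TCACGTGA. Lamp1 (chr8:13158911-13159160, plus strand) has 4, at 61, 45, 28 and 15 bases. Its WT rhythm was not called by edgeR (0.07 ± 0.03, adjusted p = 0.0784) but was by DESeq2. The edgeR test for any difference among its WT time means had an adjusted p of 0.0260, so Lamp1 is no clear case of a gene without rhythm. Gabarapl1 (chr6:129532942-129533191, plus strand), with the smallest p of any WT rhythm among the 62, has none in this window.
Bnip3: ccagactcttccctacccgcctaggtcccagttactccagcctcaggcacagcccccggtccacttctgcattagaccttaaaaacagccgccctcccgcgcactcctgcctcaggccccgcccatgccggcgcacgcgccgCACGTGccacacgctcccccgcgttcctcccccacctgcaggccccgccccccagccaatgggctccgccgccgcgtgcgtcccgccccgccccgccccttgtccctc
Atg3: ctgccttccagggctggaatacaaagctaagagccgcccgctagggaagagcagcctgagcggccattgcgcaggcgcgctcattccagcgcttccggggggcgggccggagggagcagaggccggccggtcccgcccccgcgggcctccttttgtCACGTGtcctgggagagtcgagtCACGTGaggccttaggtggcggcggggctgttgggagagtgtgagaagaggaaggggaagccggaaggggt
Lamp1: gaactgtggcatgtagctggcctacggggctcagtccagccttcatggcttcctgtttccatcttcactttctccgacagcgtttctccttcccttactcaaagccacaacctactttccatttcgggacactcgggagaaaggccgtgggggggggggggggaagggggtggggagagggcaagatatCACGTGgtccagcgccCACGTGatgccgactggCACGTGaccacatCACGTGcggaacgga
Gabarapl1: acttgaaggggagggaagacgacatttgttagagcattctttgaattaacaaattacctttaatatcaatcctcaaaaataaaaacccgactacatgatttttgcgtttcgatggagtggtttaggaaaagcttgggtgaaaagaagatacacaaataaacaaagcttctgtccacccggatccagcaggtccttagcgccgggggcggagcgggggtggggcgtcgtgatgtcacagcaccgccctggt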

How the data were processed

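Poly-A liver RNA of 48 mice was sequenced from unstranded libraries, per the labels' protocols. Bases were called with CASAVA and reads aligned with STAR 2.4.0f1 to mm9, per the submitters' processing notes. The deposited values are whole-number read counts per gene; the gene models and the counting tool are not given in the sources used here. Library totals lie within 33562272 to 34035644, so the authors' deposited counts stand at a common depth by a step no source describes, and the reads sequenced per library are unknown. Column headers name the times CT and the labels ZT; both give the same hours.

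Counts were scaled by TMM factors (0.898 to 1.14) and tested with edgeR 4.0.16 (R 4.3.3) on the 14836 genes kept by filterByExpr (minimum count 10), Benjamini-Hochberg adjusted over all of them. One model had a mean for each of 12 groups (36 residual degrees of freedom) and gave the difference averaged over times, that at each time and the interaction (5 degrees of freedom). The other fitted a 24 h wave (cosine and sine terms) to each genotype, with 42 residual degrees of freedom and 2 per rhythm test. SEs were derived from F statistics, and those of amplitudes and peaks are approximate. The scripts were tested on simulated data. CPM per kb used merged exon lengths of GENCODE M21; 18 of the 62 genes overlap another row in the deposited intervals, 8 of them one with at least 10% of their counts. Mice were the replicates; their numbers pair no groups. Correlations used 100000 permutations, two-sided. Alternatives were RLE or total-count scaling, no filter, DESeq2 1.42.0, body weight, cage terms (limma 3.58.1 for the random block), subsets of mice and leaving out each mouse.

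The genes and lists were chosen with earlier results of these data known. Named are Atp6v0d2, Ulk1, Bnip3, the ATG8 family, Sqstm1, Becn1, up to 10 called genes per direction on the average, up to 6 per other test, the highest and lowest level in each role, and up to 3 per related list; other names were chosen after their values were seen.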

Additional observations from a re-analysis of the deposited data

Results flagged for a closer look

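In 96 groups of 4 mice checked, 5 held a mouse apart from the other 3 by Dixon's criterion, where chance alone gives about 1 in 20. Bnip3 was at 224 CPM in KO mouse 43 at ZT0, beside 178 to 184 in the other 3. Sqstm1 was at 405 CPM in WT mouse 12 at ZT8, beside 332 to 343. Gabarapl1 was at 321 CPM in KO mouse 15 at ZT8, beside 255 to 265. Ctse was at 0.392 CPM in KO mouse 46 at ZT0, beside 0.296 to 0.303, and at 0.144 CPM in KO mouse 9 at ZT8, beside 0.508 to 0.548.

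The difference between genotypes depended on time (interaction, edgeR adjusted p) for Gabarapl1 at 4.19e-07, Atg2a at 2.07e-05, Sqstm1 at 6.56e-05, Atg9b at 0.000283, Atg4d at 0.00115 and Wipi1 at 0.00155. The 24 h rhythm differed between genotypes for Gabarapl1 at 5.88e-07, Atg9b at 1.26e-05, Sqstm1 at 4.30e-05, Bnip3 at 8.91e-05, Wipi1 at 0.000542 and Atg4d at 0.000859.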

How the results depend on the processing

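The counts of genes called for the WT rhythm (41), the rhythm difference (23), the interaction (19), ZT8 (10) and ZT12 (9) stayed within 1.5 times in every other setting run. Averaged over times, 5 genes were higher and 6 lower in KO. Both counts became 3 with body weight in the model and 3 in group-housed mice. Over all genes, the 733 higher and 581 lower became 381 and 330 with body weight, and 530 and 396 in group-housed mice. Within the mice of ZT4 and ZT8 13 were lower, of ZT12 and ZT16 3, and of ZT0 and ZT20 0, where Atg2a turned to 0.0014; Wipi2 turned to 0.0402 in those of ZT12 and ZT16. With cage as a fixed block in 22 mice, 1 was higher and 0 lower, beside 115 and 76 of all 15272 genes in that fit. At ZT0 the count of 1 became 0 with no filter, without the 4 farthest libraries, in group-housed mice and with cage as a random block, and 3 with DESeq2. At ZT4, 2 became 4 without the 4 farthest libraries. At ZT16, 5 became 8 with DESeq2. At ZT20, 2 became 1 with total counts and 1 with no filter, 0 in group-housed mice and 4 with DESeq2. The KO rhythm of Ulk1, the 1 gene called there, was lost (0) with no filter, without the 4 farthest libraries, in group-housed mice and with cage set as a term. Subsets hold fewer mice; otherwise the cause was not tested. Leaving out 1 mouse at a time gave 4 to 7 genes higher and 4 to 6 lower, 0 to 3 at ZT0, 6 to 11 at ZT8, 2 to 7 at ZT16, 0 to 2 at ZT20 and 0 to 1 for the KO rhythm. The mouse numbers are unique and pair no mice, so cage was the only pairing. Rhythms rest on 1 cycle at 6 times, and cage set and time of day cannot be told apart. At about 15 counts per library, Ctse is limited by depth.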
